A study of Homo sapiens with 12 samples.

Results

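The RAB genes encode the largest branch of the RAS superfamily of small GTPases. They were taken as every gene symbol of the count table made of RAB, a number and at most 1 further letter and digit, with no hyphen, which gave 61 of 26334 genes. Of these, 42 averaged 10 counts or more per library and were tested among 12032 genes, and 19 did not pass that filter. The samples were cultures of an Ewing sarcoma line labelled shA673-1c, grown with blasticidin and zeocin. All of them also carry the label CTL. Every culture received 5 µM actinomycin D, which blocks transcription by binding DNA, and poly(A) RNA was sequenced after 0, 1, 2 and 4 h, with 3 biological replicates per time and 12 libraries in all. The 0 h cultures were the only reference, and no culture was followed over the same hours without the drug. The series holds 1 line, so the values describe that line alone.

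A RAB protein is a switch. It is off when bound to GDP and on when bound to GTP, and in the GTP form it sits on a given membrane and recruits effectors such as tethers, motors and adaptors. Guanine nucleotide exchange factors (GEFs) turn RABs on, GTPase-activating proteins (GAPs) with a TBC domain turn them off, and GDI proteins draw the inactive form off membranes. Each RAB marks a step of traffic: RAB1 and RAB2 act between the endoplasmic reticulum and the Golgi, RAB5 on early endosomes, RAB11 on recycling endosomes, RAB7A on late endosomes and lysosomes, and RAB3, RAB8 and RAB27 in secretion. Several of these steps are served by close copies with nearly the same protein and separate genes.

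Library totals ranged from 9147018 to 11194705 counts. MYC, JUN, IER2 and EGR1, immediate-early genes with short-lived mRNAs, fell in 4 of 4 cases, with slopes from -1.12 to -0.56 log2 units per hour. Of 9 genes that mark Ewing sarcoma 8 were detected, including FLI1 with 143 to 908 counts and NR0B1 with 69 to 451, while CD99 was listed at 0 in every library, a value that cannot be read as absence because the counting of reads in shared sequence is not given in the sources used here. Of 8 markers of blood, epithelial, endothelial, liver and muscle cells, 7 stayed at 6 counts or fewer and DES had 5 to 30. Levels are given as CPM (counts relative to library size) scaled by TMM, a method that sets the bulk of genes to no change. They are therefore shares of the remaining mRNA, and neither RNA per cell nor cell number was measured. A slope is the change of the log2 level per hour over the 12 libraries, so a value below 0 is a faster loss than the bulk and a value above 0 a slower one. GAPDH and ACTB rose on this scale by 0.15 and 0.12 per hour. Scaling each library to them instead moved the median slope of all tested genes from 0.0093 to -0.128, and moved the RAB slopes by between -0.140 and -0.134. A rise called on the TMM scale is therefore a change relative to the bulk of mRNAs, and each is given below with its value under the other scaling where the sign or the call differs.

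Before the drug, RAB mRNAs made up 0.279% ± 0.00551 (SD, n = 3) of all counts. Per kilobase of transcript, RAB7A had the highest level, 106 CPM per kb at 0 h. It was followed by RAB1B with 87.1, RAB13 with 75.8, RAB1A with 68.6 and RAB34 with 63.5 CPM per kb. RAB7A, the GTPase that brings late endosomes to lysosomes, stood above RAB1B in every 0 h library, and RAB1B above RAB13. The 0 h libraries of RAB13 and RAB1A overlapped, as did those of RAB1A and RAB34. The lowest tested members were RAB6B with 0.570 and RAB40B with 0.341 CPM per kb. In plain counts the RAB pool was held by few genes. RAB7A, RAB1A, RAB1B, RAB10 and RAB2A together gave 32.5% of RAB counts at 0 h, and the 10 highest members gave 53.6%. The share of RAB mRNAs in all counts was 0.276% ± 0.00217 at 1 h, 0.271% ± 0.00275 at 2 h and 0.256% ± 0.00371 at 4 h (SD, n = 3 each). The 4 h libraries, at 0.252% to 0.259%, lay below all the others.

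**Figure D1:**
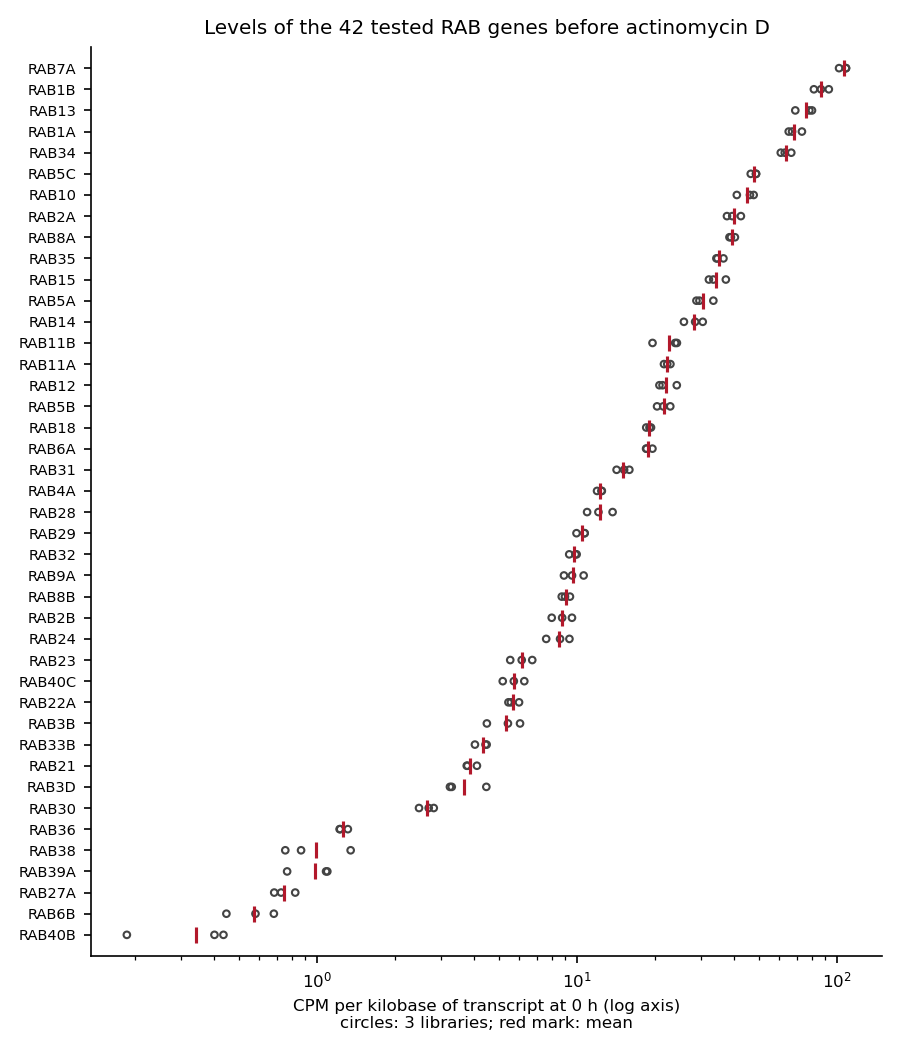
Level of each of the 42 tested RAB genes at 0 h, in TMM-scaled CPM per kilobase of the annotated transcript on a log axis. Circles are the 3 libraries and the red mark is their mean, from 106 CPM per kb for RAB7A to 0.341 for RAB40B.

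The RAB genes did not move as a block. Of the 42 tested members, 17 fell (40.5%, against 32.1% of all 12032 tested genes), 9 rose (21.4%, against 30.7%) and 16 did not pass the threshold (edgeR's quasi-likelihood test, adjusted p below 0.05). The median RAB slope was -0.03 per hour, with quartiles of -0.13 and 0.04, beside a median of 0.0093 and quartiles of -0.13 and 0.09 over all tested genes. The members ran from RAB30, steeper than all but 4.67% of tested genes, to RAB11B, above 94.2% of them. For the 17 that fell, the slope corresponds to a relative half-life of 1.99 to 22.6 h with a median of 6.99 h, and the median over all 3859 falling genes was 4.35 h. Scaled to GAPDH and ACTB, the same 17 members had half-lives of 1.57 to 5.49 h with a median of 3.54 h, so these times depend on the scaling. Between 4 h and 0 h, 16 members were lower (31.6% of all genes were) and 8 were higher (28.7% of all genes were), and each of these was among those called on the slope. When libraries were scaled to GAPDH and ACTB, 33 members fell (64.2% of all genes fell) and 0 rose (0.931% of all genes rose). All 17 falls were called under that scaling, under library totals and under DESeq2 size factors. With library totals 22 members fell and 7 rose (39.1% and 18.7% of all genes), and RAB5B (adjusted p = 0.977 by edgeR) and RAB34 (0.0694) lost their calls. None of the 9 rises was called as a rise under the GAPDH and ACTB scaling, and 2 of them, RAB1B and RAB11B, kept a slope above 0 there. RAB5B, RAB7A, RAB31 and RAB34 were called as falls under that scaling. With the replicate numbers as a block, 21 members fell and 11 rose (34.8% and 36.2% of all genes). The added falls were RAB1A (adjusted p = 0.00997), RAB2A (0.0191), RAB18 (0.00966) and RAB32 (0.0433), and the added rises RAB2B (0.024) and RAB3B (0.0292), all by edgeR. Without the 4 h libraries, 5 members fell and 4 rose (18.3% and 11.9% of all genes), and 3 of those rises were among the 9 above. The other was RAB24, with a slope of 0.20 (adjusted p = 0.0157 by edgeR), which had 0.07 (0.0882) over all libraries.

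**Figure D2:**
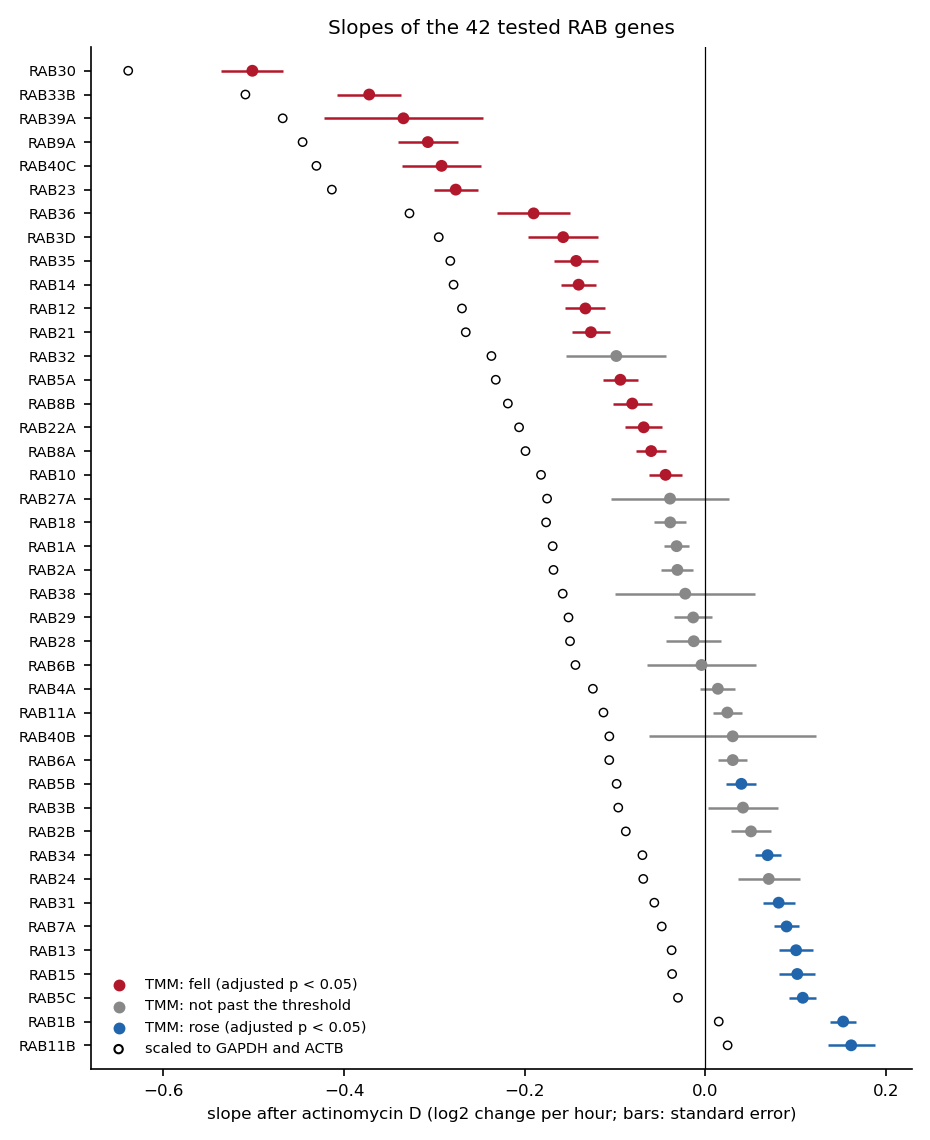
Slope of the log2 level per hour for the 42 tested RAB genes. Filled points with standard errors are the TMM-scaled fit, with falls in red, rises in blue and members past neither threshold in grey, and open circles are the same slopes scaled to GAPDH and ACTB, where only RAB1B and RAB11B stay above 0 and neither is called.

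The 3′ untranslated region (3′ UTR) of a transcript is the part that carries many stability elements, and it was read for members of this order. The pentamer ATTTA is the core of AU-rich elements, which bind proteins that recruit the deadenylation machinery. Each stretch below is a window of 30 bases of the 3′ UTR, within 1 exon, with the most copies of that pentamer on the transcript's own strand. Where several windows tied, the one with the most even flanks was taken, and the first of those. The stretches shown are those of RAB30, RAB33B and RAB9A, at ranks 1, 2 and 4 from the steepest fall, and of some close copies that moved apart. Those of RAB39A (rank 3, with 3 copies) and RAB40C (rank 5, with 1 copy) are not shown. Nor are those of RAB40B (4 copies) and RAB3B (3 copies), whose slopes were not called. That of RAB5B, with 2 copies like that of RAB5A, is also left out. Capitals mark the pentamer. Sequences and coordinates are those of the GENCODE 44 canonical transcripts on GRCh38, read 5′ to 3′, and overlapping copies count separately.
RAB30 (chr11:82980063-82980092, minus strand): gtttagATTTAttacctgtcATTTAgggca
RAB33B (chr4:139476540-139476569, plus strand): taacctgATTTAtcaaacATTTAtcaagta
RAB9A (chrX:13709525-13709554, plus strand): tATTTActcaataatggcaccttacATTTA
RAB1A (chr2:65087023-65087052, minus strand): tccttaATTTAatgataaaATTTAagctaa
RAB1B (chr11:66277310-66277339, plus strand): ccctccagcttgtATTTAagtccctgggct
RAB5A (chr3:19985034-19985063, plus strand): cagagatgATTTAatctATTTAagtgttgg
RAB11A (chr15:65887882-65887911, plus strand): tcccaggtctgagATTTAaatatatttgta
RAB11B (chr19:8404305-8404334, plus strand): tacactttgtaagATTTAcgccaaacccca

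The whole 3′ UTR of RAB30 is 9032 bases and holds 33 copies, and that of RAB33B is 3483 bases with 20 copies. RAB9A has 7 copies in 1152 bases, and RAB39A has 7 in 1110 bases. RAB40C, at rank 5 of the falls, has 1 copy in 1646 bases, as many copies as the rises RAB1B and RAB11B. In the pairs of close copies, RAB1A has 5 copies and RAB1B 1, RAB11A has 13 and RAB11B 1, and RAB5A has 7, RAB5B 8 and RAB5C 0. Over the 9 pairs described further on whose slopes differed, the gene with the lower slope had more copies in 6 and fewer in 3. The latter were RAB5A with RAB5B, RAB8A (0 copies) with RAB13 (1), and RAB40C (1) with RAB40B (11). These are numbers of copies in 3′ UTRs of unlike length. Per kilobase of 3′ UTR, RAB5A has 5.18 copies and RAB5B 1.79, RAB8A 0 and RAB13 2.23, and RAB40C 0.608 and RAB40B 3.81. A match to 5 letters is a description of the sequence and does not show that any factor binds there.

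The members were then read by role, beside the 32.1% of all tested genes that fell and the 30.7% that rose, and with so few genes per role group the counts are descriptions. Among the 9 tested members of the endoplasmic reticulum and Golgi group, 2 fell (22.2%) and 1 rose (11.1%). RAB30, a Golgi RAB, had the steepest slope of all members. Its level was 27.7, 26.5 and 24.3 CPM in the 3 replicates at 0 h, 21.9, 18.9 and 18.5 at 1 h, 14.2, 14.6 and 11.3 at 2 h, and 7.34, 7.15 and 5.26 at 4 h. No library of one time overlapped with a library of another. The slope was -0.50 ± 0.03 per hour (SE, adjusted p = 6.04e-09 by edgeR), which left 25.2% of the 0 h level at 4 h. RAB30-AS1, the antisense gene next to it, had 51 to 90 counts and a slope of 0.05 (adjusted p = 0.418 by edgeR).

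RAB33B, which binds the autophagy protein ATG16L1 and acts at the Golgi, was next. It had 17.2, 18.9 and 19.1 CPM at 0 h and 6.98, 5.70 and 7.95 CPM at 4 h, and the 2 sets did not overlap. Its slope was -0.37 ± 0.04 (adjusted p = 1.53e-07 by edgeR), with 37.4% left. RAB1B, which drives transport from the endoplasmic reticulum to the Golgi, went from 177, 155 and 165 CPM at 0 h to 253, 243 and 253 CPM at 4 h. That is a slope of 0.15 ± 0.01 (adjusted p = 1.26e-07 by edgeR) on the TMM scale and of 0.0147 (adjusted p = 0.494) when scaled to GAPDH and ACTB. RAB1A, its close copy, had 164, 179 and 160 CPM at 0 h and 148, 160 and 149 CPM at 4 h. These sets overlapped, and its slope of -0.03 ± 0.01 missed the threshold (adjusted p = 0.0586 by edgeR, 0.00997 with the replicate block). RAB2A, RAB2B, RAB6A, RAB6B and RAB18, which serve the Golgi and, in the case of RAB18, lipid droplets, had slopes between -0.04 and 0.05, and none was called in the TMM-scaled fit without the block. With library totals RAB1A, RAB2A and RAB18 fell (adjusted p = 0.000198, 0.00108 and 0.000947 by edgeR).

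**Figure D3:**
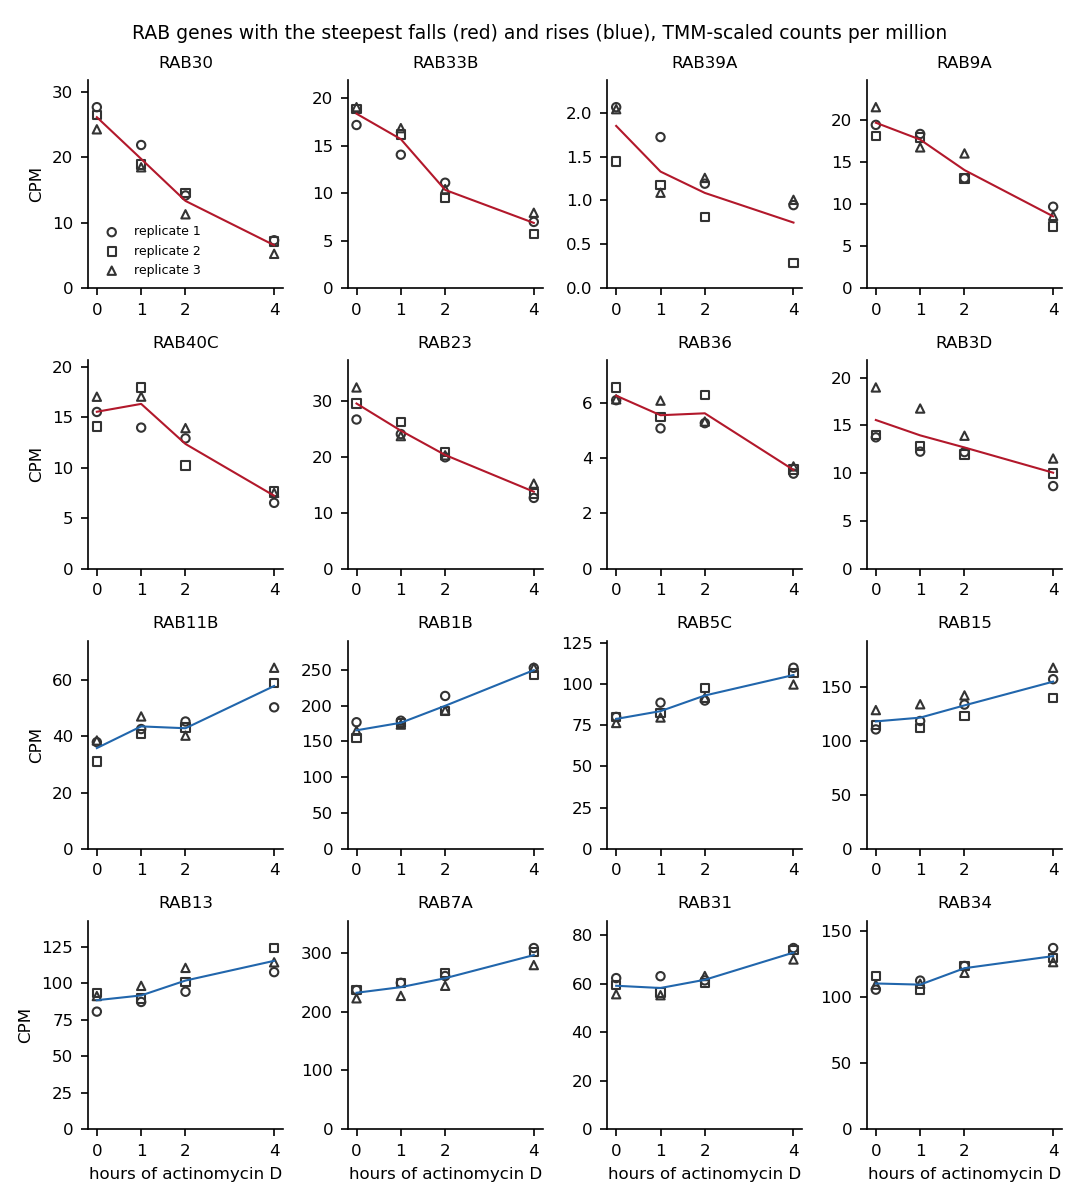
TMM-scaled CPM by hour of actinomycin D for the 8 RAB genes with the steepest falls (red) and the 8 with the steepest rises (blue) that moved the same way in every replicate. Each symbol is a library, lines join the means and each axis starts at 0. Scaled to GAPDH and ACTB, none of the 8 rises is called as a rise and 6 of them turn below 0. Of these, RAB7A, RAB31 and RAB34 are then called as falls.

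The early and recycling endosome group had 5 falls and 5 rises among 12 tested members (41.7% each, against 32.1% and 30.7% of all genes), and all 5 rises were lost under the GAPDH and ACTB scaling. The falls were RAB35 (slope -0.14), RAB14 (-0.14), RAB21 (-0.13), RAB5A (-0.09) and RAB22A (-0.07). RAB14, which acts between the Golgi and early endosomes, had 107, 126 and 118 CPM at 0 h and 79.3, 86.3 and 77.8 CPM at 4 h. RAB35, a regulator of fast recycling, stayed at 104, 98.1 and 99.0 CPM at 0 h and 105.9, 104.6 and 104.5 CPM at 1 h, and had 76.6, 65.3 and 67.2 CPM at 4 h. For both genes the 4 h libraries lay below every 0 h library. RAB5A, the early endosome RAB that organises fusion, had 72.5, 84.2 and 74.4 CPM at 0 h and 57.3, 64.8 and 53.1 CPM at 4 h, without overlap (adjusted p = 0.000488 by edgeR). RAB22A lost its call without replicate 1 (adjusted p = 0.0601 by edgeR).

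The 5 rises of that group were RAB11B, RAB5C, RAB15, RAB31 and RAB5B. RAB11B, a RAB of recycling endosomes, had 37.9, 31.0 and 38.5 CPM at 0 h and 50.3, 59.0 and 64.4 CPM at 4 h, a slope of 0.16 ± 0.03 (adjusted p = 4.64e-05 by edgeR). Reads of RAB11B-AS1, on the opposite strand, numbered 8 to 19 per library beside 322 to 610 for RAB11B. RAB5C, the third RAB5 copy, had 80.1, 80.1 and 76.4 CPM at 0 h and 110, 107 and 99.7 CPM at 4 h (slope 0.11 ± 0.01, adjusted p = 9.09e-06 by edgeR). Neither gene overlapped between 0 h and 4 h, and scaled to GAPDH and ACTB their slopes were 0.0245 and -0.0304. RAB15 had a slope of 0.10 and RAB31 of 0.08, and these turned to -0.0369 and -0.0566 under that scaling. RAB5B had a slope of 0.04 with an adjusted p of 0.0462 (edgeR), and its call was lost without replicate 1 or replicate 2. RAB4A and RAB11A, both of recycling routes, were not called, with slopes of 0.01 and 0.02.

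In the late endosome, lysosome and related organelle group, 4 of 10 tested members fell and 2 rose, beside 32.1% and 30.7% of all genes. RAB9A, which returns mannose 6-phosphate receptors to the Golgi, had 19.5, 18.1 and 21.6 CPM at 0 h and 9.70, 7.35 and 8.62 CPM at 4 h. Its slope was -0.31 ± 0.03 (adjusted p = 6.29e-07 by edgeR), and the 4 h libraries lay below those of every other time. RAB39A also fell by 0.33 on the log2 scale per hour, but from only 3 to 23 counts per library, with a wide SE of 0.09 (adjusted p = 0.00347 by edgeR, and 0.0885 without the 0 h libraries). RAB36 fell by 0.19, and RAB12, which acts in degradation of the transferrin receptor, by 0.13. RAB7A had 237, 237 and 223 CPM at 0 h and 308, 301 and 279 CPM at 4 h, without overlap. Its slope was 0.09 ± 0.01 (adjusted p = 3.04e-05 by edgeR) on the TMM scale, and -0.0484 (adjusted p = 0.00913) when scaled to GAPDH and ACTB, so the most abundant RAB mRNA changed direction with the scaling. RAB34, of lysosome position and cilia, likewise went from 0.07 to -0.0698. RAB29, RAB24, RAB32 and RAB38 did not pass the threshold on the TMM scale without the block, with slopes between -0.10 and 0.07. RAB29 and RAB32 fell with library totals (adjusted p = 0.0403 and 0.0435 by edgeR). Both also fell when scaled to GAPDH and ACTB (7.87e-06 and 0.000511).

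Among the 7 tested RABs of secretion and polarised delivery, 4 fell (57.1%) and 1 rose (14.3%). RAB3D, of regulated secretion, had 13.8, 14.0 and 19.0 CPM at 0 h and 8.64, 9.96 and 11.5 CPM at 4 h. Its slope was -0.16 ± 0.04 (adjusted p = 0.00196 by edgeR). RAB3D shares exon sequence on the same strand with TMEM205, which had 322 to 518 counts per library and a slope of 0.15, and how reads in shared exons were counted is not given in the sources used here. RAB8A and RAB8B, which deliver cargo to the plasma membrane and the cilium, fell by 0.06 and 0.08 per hour. RAB10, of basolateral and GLUT4 delivery, fell by 0.04 with an adjusted p of 0.0488 (edgeR), and was not called without replicate 2 or replicate 3, nor was RAB8A without replicate 2 (adjusted p = 0.0597). RAB13, a tight junction RAB, had 80.4, 93.3 and 91.1 CPM at 0 h and 108, 124 and 114 CPM at 4 h. It was the one rise of this group, with a slope of 0.10 ± 0.02 (adjusted p = 0.000193 by edgeR) that turned to -0.0375 (adjusted p = 0.269) when scaled to GAPDH and ACTB.

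RAB27A and RAB27B, which dock secretory vesicles at the plasma membrane, were scarce. RAB27A had 14 to 32 counts per library, with a level of 2.57 CPM ± 0.247 at 0 h and 2.10 CPM ± 0.410 at 4 h (SD, n = 3), and was not called (slope -0.04 ± 0.06, adjusted p = 0.618 by edgeR). RAB27B had 0 to 6 counts and was not tested. RAB27A shares exon sequence with PIGBOS1, which fell by 0.38 per hour with 21 to 79 counts.

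In the cilium and mixed group, 2 of 4 tested members fell and 0 rose, beside 32.1% and 30.7% of all genes. RAB23, an antagonist of Hedgehog signalling, had 26.7, 29.6 and 32.5 CPM at 0 h and 12.7, 13.4 and 15.2 CPM at 4 h. The slope was -0.28 ± 0.02 (adjusted p = 7.33e-08 by edgeR) and 46.5% was left. RAB40C, part of a CUL5 ubiquitin ligase, had 15.5, 14.1 and 17.0 CPM at 0 h, 14.0, 18.0 and 17.0 CPM at 1 h and 6.51, 7.64 and 7.50 CPM at 4 h. The first hour showed overlap with 0 h, and the 4 h libraries lay below all others (slope -0.29 ± 0.04, adjusted p = 2.44e-05 by edgeR). WFIKKN1, which overlaps RAB40C on the same strand, had 1 to 8 counts. RAB28 and RAB40B were not called, with slopes of -0.01 and 0.03.

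Close copies were compared directly, as the slope of the log2 ratio of the 2 genes within each library, which no scaling of libraries can change. Of 20 pairs listed, 13 had both genes tested, and 9 of these 13 differed (two-sided exact permutation test over 369600 assignments of the libraries, p adjusted over the 13 pairs). With permutation within replicate numbers 9 also passed. Several pairs share a gene, so they are not independent. RAB1A and RAB1B began level, with a ratio of 1.02 ± 0.122 at 0 h, and reached 0.612 ± 0.0420 at 4 h (SD, n = 3). The slope of that log2 ratio was -0.18 in the mean, between -0.19 and -0.18 in the 3 replicates. Its exact p was 2.71e-06, the smallest that free assignment of the 12 libraries allows (adjusted 3.52e-05). Permuted within replicate numbers, which keeps the pairing of the samples, the exact p was 7.23e-05, the smallest possible there (adjusted 0.000376). RAB5A fell against RAB5C by 0.20 per hour (adjusted exact p = 3.52e-05), with a ratio of 0.977 ± 0.0731 at 0 h and 0.553 ± 0.0464 at 4 h. It also fell against RAB5B by 0.14 (adjusted exact p = 0.000492), and RAB5B fell against RAB5C by 0.07 (adjusted exact p = 0.0309). The 3 early endosome copies thus lay in the order RAB5A, RAB5B, RAB5C.

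RAB8A fell by 0.16 against its relative RAB13, RAB22A by 0.15 against RAB31 and RAB11A by 0.14 against RAB11B. Their adjusted exact p values were 0.000492, 0.000577 and 0.00489. RAB11A had 2.79 to 3.60 times the counts of RAB11B at 0 h and 1.82 to 2.14 times at 4 h. RAB2A fell by 0.08 against RAB2B (adjusted exact p = 0.0309), and RAB40B rose by 0.33 against RAB40C (adjusted exact p = 0.0344), the latter from low counts of RAB40B. In 4 pairs no difference passed the threshold. The replicate slopes ran from -0.05 to 0.17 for RAB6A against RAB6B, from -0.02 to 0.07 for RAB8A against RAB8B, from -0.03 to 0.01 for RAB8A against RAB10, and from -0.14 to -0.07 for RAB32 against RAB38. Without replicate 2, 5 pairs passed: the pairs lost were RAB2A with RAB2B, RAB5B with RAB5C, RAB11A with RAB11B and RAB40B with RAB40C. Without replicate 1, 6 passed, and RAB2A with RAB2B, RAB5B with RAB5C and RAB40B with RAB40C were lost. Without the 4 h libraries 2 pairs passed, RAB1A with RAB1B and RAB5A with RAB5C.

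**Figure D4:**
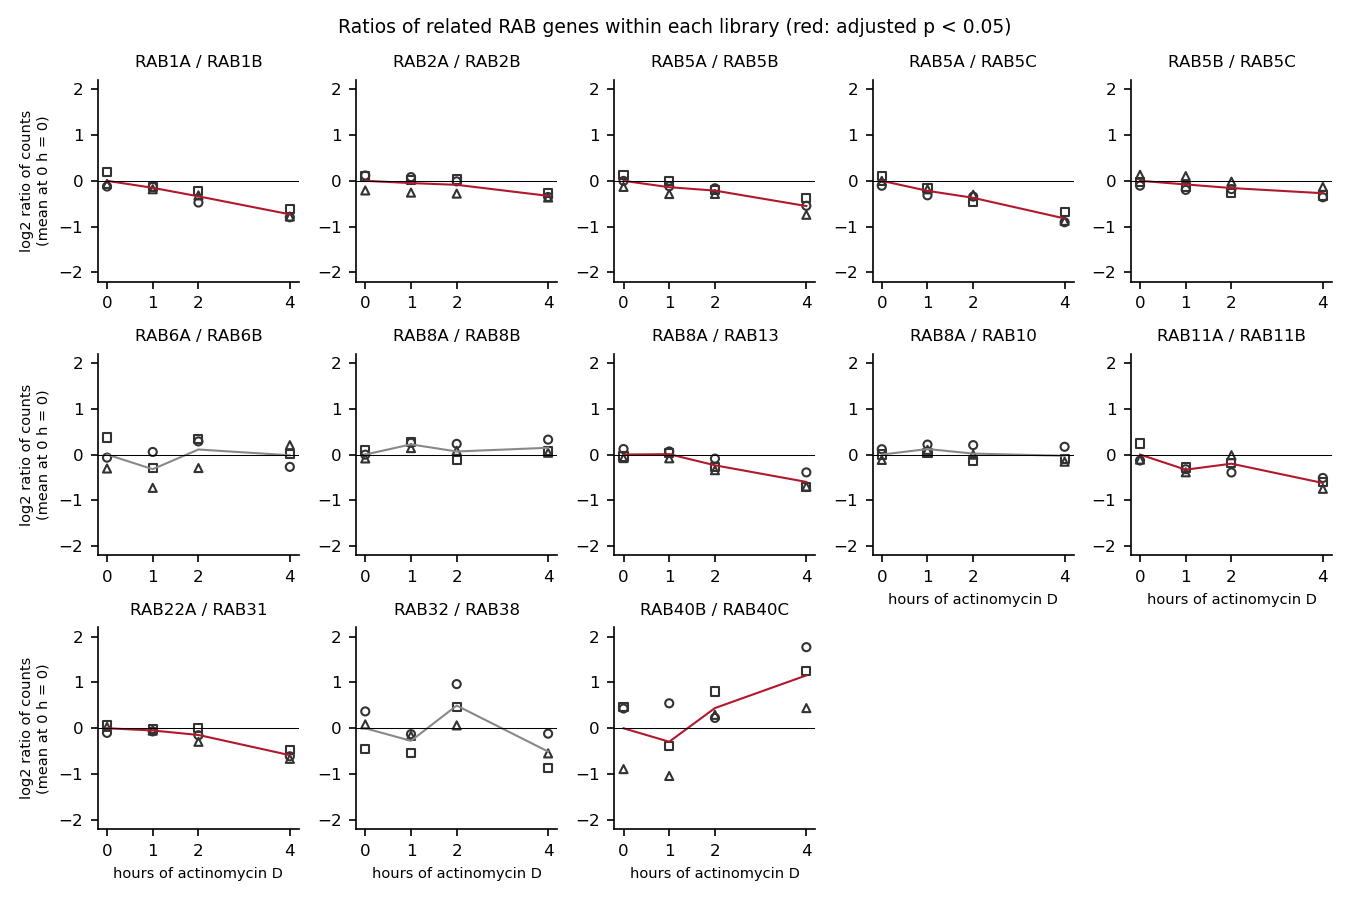
Log2 ratio of counts of 2 related RAB genes in each library, set to 0 at the 0 h mean, by hour of actinomycin D. Circles, squares and triangles are replicates 1, 2 and 3, lines join the means, and red lines mark the 9 of 13 pairs with an adjusted exact p below 0.05, such as RAB1A against RAB1B.

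The first hour brought little that the test could separate from replicate spread. Between 1 h and 0 h, 0 of 42 members were lower (2.24% of all genes were) and 0 were higher (0.349% of all genes were) by edgeR. At an unadjusted p below 0.05 there were 5 (4 lower, 1 higher), where 14.2% of all genes passed, and the lowest adjusted p was 0.116, for RAB30. With the replicate block 3 fell and 1 rose: RAB30 by a log2 change of -0.40 (adjusted p = 0.000743), RAB23 by -0.26 (0.0182), RAB12 by -0.20 (0.0347) and RAB11B by 0.28 (0.0132), where 16.7% of all genes passed. A departure of the course from a straight line was called for 0 members (2.7% of all genes) by edgeR, with 2 at an unadjusted p below 0.05, where 12.3% of all genes passed, and a lowest adjusted p of 0.177, for RAB35. With the block it was called for 3, RAB35 (adjusted p = 0.000962), RAB40C (0.0286) and RAB14 (0.0411), beside 17.2% of all genes. These are genes whose 1 h level was close to that at 0 h, and for which a single half-life describes the course less well.

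Across the 42 tested members, the slope tended to be lower for longer and more AU-rich transcripts. It also tended to be lower for members with a lower level at 0 h. Spearman's correlation with that level was 0.36, against 0.066 over all 12032 tested genes. The 17 falls had a median 3′ UTR of 3263 bases, 7 copies of ATTTA and 41.2% GC over the transcript. The 9 rises on the TMM scale had medians of 1254 bases, 1 copy and 56.2% GC. The 16 others had 2308 bases, 8 copies and 42.5% GC. Scaled to GAPDH and ACTB, none of the 9 was called as a rise, and RAB5B, RAB7A, RAB31 and RAB34 were called as falls. Spearman's correlation with the slope was 0.41 for GC content, -0.36 for the number of ATTTA copies and -0.27 for 3′ UTR length over 42 members, beside 0.27, -0.31 and -0.27 over 10823 tested genes with a matched transcript. These are descriptions across genes that share libraries, and the 3 features vary together. There were exceptions in both directions. RAB40C fell with 65.3% GC and 1 copy, RAB8A fell with 0 copies, and RAB3B, with the second longest 3′ UTR of the tested members at 11971 bases and 16 copies, was not called. The last 1000 bases of the 3′ UTR held ATTTA in 82.4% of 34 tested RAB genes with a 3′ UTR of that length and in 82.2% of 6586 such genes overall.

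**Figure D5:**
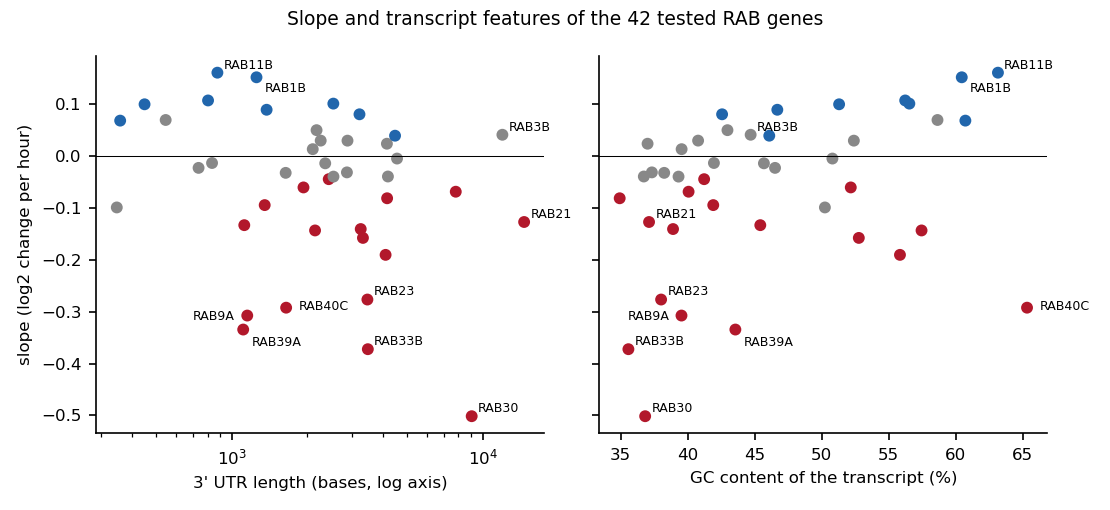
Slope of the log2 level per hour against 3′ UTR length on a log axis (left) and GC content of the transcript in percent (right) for the 42 tested RAB genes. Red points fell, blue points rose on the TMM scale and grey points passed neither threshold, and RAB30 and RAB11B stand at the ends of the order. Scaled to GAPDH and ACTB, no blue point is called as a rise, and RAB5B, RAB7A, RAB31 and RAB34 are called as falls.

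The genes of proteins that load, switch and read RABs moved in both directions. In the lists of regulators, effectors and other small GTPases, 181 genes in all, 161 were tested. Of these 48 fell (29.8%) and 46 rose (28.6%), shares near the 32.1% and 30.7% of all tested genes. Under the GAPDH and ACTB scaling 115 fell (71.4%, against 64.2% of all genes) and 0 rose. Of the 8 genes of RAB delivery and prenylation, 3 fell (37.5%) and 5 rose (62.5%), beside 32.1% and 30.7% of all genes. Under the GAPDH and ACTB scaling 5 of them fell (62.5%, against 64.2% of all genes) and 0 rose. RABGGTA and RABGGTB, the subunits of the enzyme that attaches the lipid anchor, moved apart, with slopes of 0.14 and -0.10. Under the GAPDH and ACTB scaling that of RABGGTA was -0.0006 and was not called.

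Of 33 tested genes listed as GEFs or their partners 16 fell (48.5%) and 6 rose (18.2%), beside the 32.1% and 30.7% of all genes. SMCR8, placed in that list beside its partner C9orf72, fell from 77.8 CPM ± 9.19 to 24.8 CPM ± 2.73 (slope -0.43, adjusted p = 1.03e-08 by edgeR). Whether SMCR8 acts as a GEF was not tested. RIC1, a subunit of the GEF of RAB6, fell by 0.29. Of 14 tested TRAPP genes, whose complexes turn on RAB1 and RAB11, 1 fell (7.14%) and 4 rose (28.6%), among them TRAPPC5 (slope 0.23) and TRAPPC1 (0.15). Of 35 tested GAP genes 11 fell (31.4%) and 8 rose (22.9%), with EVI5 at -0.40 and SGSM3 at 0.18. Of 41 tested effectors 12 fell (29.3%) and 10 rose (24.4%). GOLGA5, a Golgi tether, fell from 48.7 CPM ± 5.42 to 27.1 CPM ± 0.567, and MICALL2, an effector of RAB13, went from 12.2 CPM ± 1.49 to 22.8 CPM ± 3.39. As for the RABs, none of the rises in these lists was called as a rise under the GAPDH and ACTB scaling.

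LRRK1, LRRK2 and PPM1H, the kinases and phosphatase of RAB phosphorylation, were tested and not called. Of 6 tested RAB-like genes 5 rose (83.3%, against 30.7% of all genes) and 0 fell on the TMM scale. When scaled to GAPDH and ACTB, 2 fell (33.3%, against 64.2% of all genes), RABL2B among them, and 0 rose. The rises of IFT27 and RABL2B were near the threshold (adjusted p = 0.0465 and 0.0436 by edgeR). Neither was called with library totals (0.194 and 0.402). In the related ARF, ARL and SAR GTPases 5 of 21 fell (23.8%) and 8 rose (38.1%) on the TMM scale. When scaled to GAPDH and ACTB, 16 fell (76.2%) and 0 rose. ARF6, of the plasma membrane and endosomes, was lost faster than any RAB, from 106 CPM ± 9.63 at 0 h to 10.4 CPM ± 0.545 at 4 h (SD, n = 3; slope -0.83, adjusted p = 7.75e-09 by edgeR).

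Other members also share exon sequence with neighbours. RAB24 does so with MXD3 and RAB8A with HSH2D on the same strand, and RAB1A with CEP68, RAB23 with BAG2, RAB2B with TOX4 and RAB5A with PP2D1 on the opposite strand. HSH2D had 1 to 19 counts per library and MXD3 16 to 60. The use of strand in counting is not given in the sources used here, so reads of opposite genes cannot be told apart.

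The 19 members that did not pass the filter include RABs of secretory, epithelial and neuronal cells. RAB3A, RAB9B and RAB33A had 109, 115 and 116 counts over the 12 libraries, just under the filter, while the lowest tested members, RAB40B and RAB39A, had 153 and 154. RAB17, RAB25 and RAB37 had 6, 4 and 3 counts in all. RAB4B, RAB19 and RAB41 were listed at 0 in every library. A count of 0 allows up to 3 counts, for counting error only. Over library totals without TMM, that is 0.268 CPM in the deepest library and 0.328 CPM in the shallowest. On the TMM scale used for levels it is 0.29 and 0.355 CPM in the same libraries. For RAB4B the zeros cannot be read as absence, because its read-through neighbours RAB4B-EGLN2 and MIA-RAB4B and the gene EGLN2 were also listed at 0 or 1. RAB43 had 0 to 4 counts, while ISY1-RAB43, which contains it, was at 0. RAB6C is a retrocopy of RAB6A, and RAB40A is close to RAB40AL, so their 0 to 1 counts are uncertain.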

How the data were processed

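The authors deposited whole-number counts of reads per gene symbol for the 12 libraries, made with a stranded poly(A) kit. The submitters' processing notes name FastQC, STAR and hg19. The paper's general account of such libraries (Prinseq, STAR, Salmon with GRCh38, tximport) does not name these samples, and the counter and its use of strand are not given in the sources used here. Columns were matched to samples by title, and 0 were left unmatched. Samples were grouped by the labelled time.

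The RAB genes, role groups and lists were chosen with earlier results of these data known. Counts were analysed with edgeR 4.0.16 (R 4.3.3, TMM, glmQLFit and glmQLFTest, mean of at least 10 counts, Benjamini-Hochberg over 12032 genes): a slope on time without block, time as 4 groups for 4 h or 1 h against 0 h, and quadratic and cubic terms for departure from a line. SEs come from the F statistic. The script was tested on simulated counts. Pairs of genes were compared by an exact permutation test on log2 ratios of counts plus 0.5. Transcript features come from GENCODE 44 (GRCh38), matched by symbol, and no coordinate of hg19 was used. Named genes were the best known RABs, the 8 steepest falls and 8 steepest rises with one sign in every replicate number, and up to 3 each way per list. Further members were named after their values were seen, to account for every call.

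Replicates are labelled as biological. Deviations from the time means correlated at 0.347 to 0.657 in the 18 same-numbered pairs of samples and at -0.439 to 0.0953 in the 36 others, so the numbers pair the samples. Replicates of a time differed by more than sampling noise (chi-square per degree of freedom 3.20 to 8.65 in 12 pairs). Alternatives were library totals, DESeq2 1.42.0 size factors and Wald test, GAPDH and ACTB scaling, other count filters, limma 3.58.1 on log2(CPM + 1) and log2(CPM + 0.1), the replicate block, and leaving out a replicate or the 0 h or 4 h libraries. The limit given for a count of 0 covers counting error only, while the SDs and SEs also hold the spread between libraries.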

Additional observations from a re-analysis of the deposited data

How the results depend on the processing

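With scaling to GAPDH and ACTB, RAB genes with a called slope went from 17 falls and 9 rises to 33 and 0. List genes went from 48 and 46 to 115 and 0, where 64.2% of all tested genes fell and 0.931% rose. At 4 h against 0 h, 33 RAB genes were lower and 0 higher (63.3% and 0.923% of all genes). At 1 h, 1 was lower (4.46% of all genes). Slopes above 0 turned below it for RAB5B (-0.0983), RAB5C (-0.0304), RAB7A (-0.0484), RAB11A (-0.113), RAB13 (-0.0375), RAB15 (-0.0369), RAB31 (-0.0566) and RAB34 (-0.0698), and also for RAB2B (-0.0882), RAB3B (-0.0965), RAB4A (-0.125), RAB6A (-0.107), RAB24 (-0.0688) and RAB40B (-0.106). These 14 members were the ones that changed sign, and 9 of them were then called as falls, the exceptions being RAB5C, RAB13, RAB15, RAB24 and RAB40B. With library totals RAB11A turned to -0.0147, RAB4A to -0.0256, RAB6A to -0.0085 and RAB40B to -0.0089, none of them called. In that setting 5 members were higher at 4 h (17.6% of all genes). The 0 h level was then 2794 CPM for the summed RAB genes (2695 with TMM) and 240.4 CPM for RAB7A (231.9 with TMM).

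With the replicate block, which the pairing of the numbers allows, 21 RAB genes fell and 11 rose (34.8% and 36.2% of all genes). At 1 h, 3 fell and 1 rose (10.5% and 6.18% of all genes), and 3 departed from a line (17.2% of all genes). All 17 falls and 9 rises were also called with the block. Without the 4 h libraries 5 RAB genes fell and 4 rose, and list genes came to 18 and 20, where 18.3% and 11.9% of all genes were called. There, 2 pairs of related genes differed. In that setting the slope of RAB8A minus RAB10 turned to 0.0105 and of RAB32 minus RAB38 to 0.248, and without the 0 h libraries RAB27A turned to 0.0718. Leaving out 1 replicate number gave 16 to 17 falls (28.8% to 30.6% of all genes) and 8 to 10 rises (24.7% to 27.7% of all genes). It gave 5 to 9 pairs, with RAB8A minus RAB8B between -0.0033 (without replicate 1) and 0.0432, and RAB6A minus RAB6B between -0.0443 (without replicate 3) and 0.0657. None of the reversed values of this paragraph passed the threshold. Under DESeq2's size factors and Wald test and both limma fits 17 members fell and 9 or 10 rose. Of all genes, 31.8% to 32.2% fell and 30.5% to 30.8% rose in these settings. The cause of these changes was not tested.

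Depth limits the scarce members. The 37 tested RAB genes that averaged 50 counts or more per library had slope SEs of 0.0139 to 0.0556, and the 5 with fewer, RAB6B, RAB27A, RAB38, RAB39A and RAB40B, had SEs of 0.0601 to 0.0922.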
